A study of Mus musculus with 6 samples.

Results

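The ligands described here are the CXC chemokines Cxcl1, Cxcl2, Cxcl5, Cxcl9, Cxcl10, Cxcl14 and Cxcl16, the platelet chemokines Ppbp and Pf4, and the CX3C chemokine Cx3cl1. They were chosen by gene name, and all 10 were found among the 33679 genes of the deposited expression table. The samples were mouse kidneys after unilateral ureteral obstruction, in which tying off a ureter leads to inflammation and scarring of the kidney above it. The labels name 3 kidney samples of Cd248 KO mice and 3 of wild type (WT) mice, all of them obstructed. Cd248 encodes endosialin, a surface glycoprotein of fibroblasts and pericytes. Values were used here for 1 Cd248 KO library and 3 WT libraries. Cd248 KO replicates 2 and 3 were not analysed here. The labels speak of pooled RNA, and they give no strain, age, sex, interval after surgery or cell type in which Cd248 was deleted. No kidney without obstruction was part of the comparison, so every value is a level in an obstructed kidney.

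Chemokines are small secreted proteins that draw leukocytes along a gradient through G protein-coupled receptors. CXC chemokines that carry a Glu-Leu-Arg motif before the first cysteine pair attract neutrophils through Cxcr2. Cxcl9 and Cxcl10 are induced by interferons and attract activated T and NK cells through Cxcr3. Cxcl16 and Cx3cl1 differ from the rest in being made as membrane-anchored proteins that can be shed, and they bind Cxcr6 and Cx3cr1. In the obstructed kidney such ligands come from tubule cells, endothelium, stroma and the infiltrating leukocytes themselves.

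Cd248 was listed at 0 FPKM in the Cd248 KO library and at 9.03, 9.57 and 8.78 FPKM in WT replicates 1, 2 and 3, as the labels state. FPKM are fragments scaled to transcript length and library size, so levels of different genes can be set side by side. Kidney identity was plain in each library, with Umod, the urinary protein of the loop of Henle, at 473 FPKM in the Cd248 KO library and 340 to 640 FPKM in the WT libraries. The Cd248 KO library stood apart in its B and plasma cell markers, whose 9 genes summed to 4572 FPKM against 136 to 218 FPKM in the WT libraries. WT replicate 1 stood apart in its tubule and neutrophil genes, with the lowest sum of 11 tubule and podocyte markers of the 4 libraries (505 FPKM) and the highest sum of 10 neutrophil markers other than Lcn2 (78.8 FPKM).

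None of the 10 chemokines passed the test between genotypes. On the log2(FPKM + 1) scale, limma's moderated model over 16871 genes with a Benjamini-Hochberg adjusted p under 0.05 called 0 of 10 higher and 0 of 10 lower. It called 0.640% of all tested genes higher and 0.0830% lower. At an unadjusted p under 0.05, 2 of the 10 were below the threshold, Ppbp and Cxcl9, against 1818 of the 16871 genes. Every value of Cd248 KO is that of 1 library, which the model assumes to vary like the WT libraries, and an exact permutation test of 1 library against 3 cannot go below p = 0.25. The Cd248 KO value lay below every WT library for Ppbp, Pf4, Cxcl14 and Cx3cl1 and above every WT library for Cxcl9 and Cxcl16. Over all tested genes 31.2% lay below and 28.0% above, so with the values as deposited 4 and 2 of 10 are near that background. With the immunoglobulin genes left out and libraries rescaled, 6 of 10 lay below and 1 above, against 36.9% and 19.1% of the genes then tested. The median difference of the 10 was -0.35, against -0.01 for all tested genes. In bulk tissue, fewer cells of a type and less RNA per cell cannot be told apart.

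**Figure D1:**
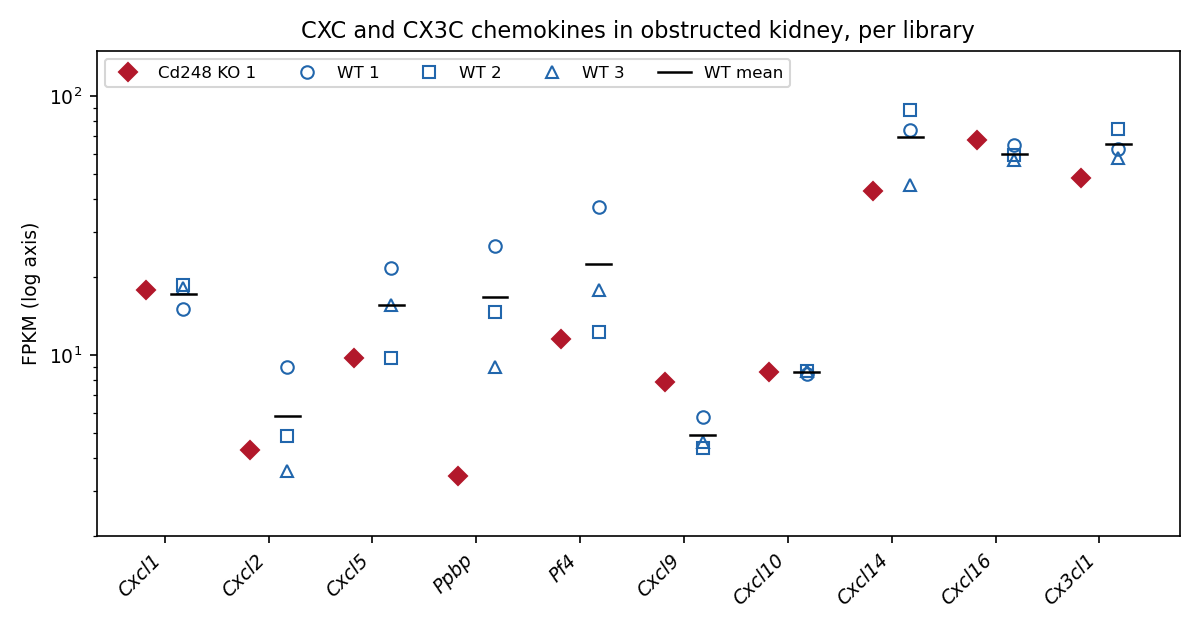
Level of each chemokine in FPKM (log axis) in the Cd248 KO library (red diamonds) and in WT replicates 1 to 3 (open blue circles, squares and triangles), with the WT mean as a black line. Ppbp shows the widest gap, 3.41 FPKM in Cd248 KO against 9.05 to 26.5 FPKM in WT, while the Cxcl10 points lie on top of each other.

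**Figure D2:**
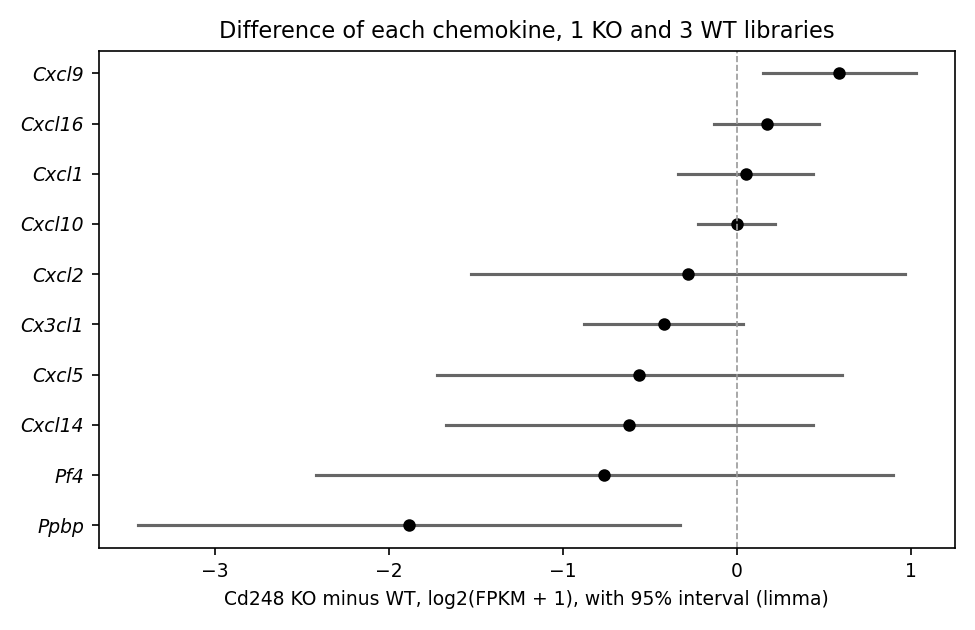
Difference of each chemokine, Cd248 KO minus WT, on the log2(FPKM + 1) scale, with limma's 95% interval (horizontal lines, before adjustment for the number of genes tested). The intervals of Ppbp and Cxcl9 leave out 0, on opposite sides, and those of the other 8 cover it.

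Of the 10 genes, 7 lie on chromosome 5 in a pair of clusters. Cxcl5, Ppbp, Pf4, Cxcl1 and Cxcl2 lie between 90759360 and 90905938 (GENCODE M21, GRCm38, the assembly of mm10), and Cxcl9 and Cxcl10 between 92321347 and 92348889. By RefSeq's starts, Ppbp and Pf4 are 3.9 kb apart, Cxcl1 and Cxcl2 12.7 kb and Cxcl9 and Cxcl10 20.8 kb. RefSeq's promoter table (GRCm38.p6) held 8 of the 10 genes. The 250 bases before the start are shown for the neighbour pairs Cxcl1 and Cxcl2 and Cxcl9 and Cxcl10, whose levels are compared below, and for Ppbp, which had the widest difference. Each is read 5′ to 3′ along the gene. Capitals mark matches, on either strand, to an NF-kB core (GGG and TTTCC with 2 bases between), an interferon-stimulated response element (GAAA, any 2 bases and GAAA again), a TATA box (TATAAA) or a GATA motif (AGATAA). No motifs overlap in these windows.
Cxcl1, chr5:90890995-90891244, plus strand: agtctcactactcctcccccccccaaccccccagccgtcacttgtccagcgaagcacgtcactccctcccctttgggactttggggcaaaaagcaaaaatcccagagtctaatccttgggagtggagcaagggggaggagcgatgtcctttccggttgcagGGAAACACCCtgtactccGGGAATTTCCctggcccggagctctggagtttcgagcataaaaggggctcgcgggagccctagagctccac
Cxcl2, chr5:90903649-90903898, plus strand: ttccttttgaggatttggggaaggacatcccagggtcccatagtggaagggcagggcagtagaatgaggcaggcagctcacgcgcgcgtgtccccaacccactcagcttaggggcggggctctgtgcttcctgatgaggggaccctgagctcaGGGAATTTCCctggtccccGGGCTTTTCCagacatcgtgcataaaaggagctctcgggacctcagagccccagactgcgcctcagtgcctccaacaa
Ppbp, chr5:90768268-90768517, plus strand: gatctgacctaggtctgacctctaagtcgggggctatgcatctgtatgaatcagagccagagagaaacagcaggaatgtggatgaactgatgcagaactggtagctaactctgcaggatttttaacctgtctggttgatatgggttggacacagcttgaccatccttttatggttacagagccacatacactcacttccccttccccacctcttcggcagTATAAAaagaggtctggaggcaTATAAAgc
Cxcl9, chr5:92328080-92328329, minus strand: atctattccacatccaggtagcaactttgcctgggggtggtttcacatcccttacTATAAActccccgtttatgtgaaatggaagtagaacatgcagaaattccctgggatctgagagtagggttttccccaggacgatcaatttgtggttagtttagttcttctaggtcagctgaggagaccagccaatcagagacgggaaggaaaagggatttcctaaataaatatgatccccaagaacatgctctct
Cxcl10, chr5:92348890-92349139, minus strand: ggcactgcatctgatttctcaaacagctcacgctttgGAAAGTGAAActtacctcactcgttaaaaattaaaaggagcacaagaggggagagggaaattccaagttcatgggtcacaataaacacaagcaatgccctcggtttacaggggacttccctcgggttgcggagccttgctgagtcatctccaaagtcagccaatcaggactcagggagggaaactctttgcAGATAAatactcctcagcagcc

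The NF-kB core was present in 2 of the 8 promoters, those of Cxcl1 and Cxcl2, each with a pair of matches, and in 1.41% of the 32851 promoters of the same length in the table. In both genes one match read GGGAATTTCC. Only the exact letters given above were counted, so near matches, such as gggaaattcc upstream of Cxcl10, were left out. The interferon-stimulated response element was found upstream of Cxcl10, 213 bases before the start, and upstream of Cxcl14, and in 2.98% of all promoters. The letters TATAAA, searched at any distance from the start, were found in 3 of the 8 promoters and in 12.4% of all. A match is therefore not a TATA box shown to work as one. Ppbp held a pair, Cxcl9 one 195 bases before its start and Cx3cl1 one directly before its start. The GATA motif of Cxcl10 is in 9.99% of promoters. A gamma-activated sequence (TTC and GAA with 3 bases between) was found in Cxcl14 only among the 8, and in 7.02% of promoters. These matches describe the letters of the windows and are not sites shown to be bound.

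The ligands of Cxcr2 differed in how far the WT libraries themselves spread. Cxcl1 (chromosome 5, 90891241 to 90893115), a neutrophil attractant made by injured tubules and stroma, was at 17.9 FPKM in the Cd248 KO library and at 15.1, 18.7 and 18.2 FPKM in WT replicates 1, 2 and 3. The Cd248 KO value was inside the WT range, and the difference was 0.05 (SE 0.14, 95% interval -0.34 to 0.44, adjusted p = 0.923). Its sign changed with the scaling. Cxcl2 (90903871 to 90905938), the neighbouring ligand of the same receptor and in mice a product of activated macrophages among other cells, was at 4.31 FPKM in Cd248 KO and at 9.04, 4.88 and 3.58 FPKM in WT. WT replicate 1 held the highest value, and the Cd248 KO value lay between those of WT replicates 2 and 3. The difference was -0.28 (95% interval -1.53 to 0.96, adjusted p = 0.853), and without WT replicate 1 it was 0.03. Cxcl2 shared 126 of the 2159 stretches of 50 bases of its transcripts with Cxcl3, so some reads may be split between them.

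Cxcl5 (90759360 to 90761624), an epithelial neutrophil attractant known in mice as LIX, was at 9.79 FPKM in the Cd248 KO library and at 21.7, 9.77 and 15.6 FPKM in WT. The Cd248 KO and WT replicate 2 values were almost equal, and WT replicate 1 was again highest. The difference was -0.56 (95% interval -1.73 to 0.60, adjusted p = 0.690), and -0.31 without WT replicate 1. Cxcl3, another ligand of this group, followed WT replicate 1 more closely still, at 0.37 FPKM in Cd248 KO and 4.52, 0.22 and 0.53 FPKM in WT. The receptor Cxcr2 was at 0.90 FPKM in Cd248 KO and at 3.39, 0.75 and 1.76 FPKM in WT (difference -0.54, adjusted p = 0.751). Cxcr1 stayed at or below 0.25 FPKM in all 4 libraries.

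The sum of the neutrophil markers had the same order over the WT libraries as Cxcl5, Cxcl3 and Cxcr2. Without Lcn2, which tubules also make, the 10 neutrophil markers summed to 31.7 FPKM in Cd248 KO and to 78.8, 18.6 and 46.4 FPKM in WT replicates 1, 2 and 3. The Cd248 KO sum then lay inside the WT range. With Lcn2 it lay below every WT library, at 116 FPKM against 257, 189 and 216 FPKM. Lcn2 itself was at 84.4 FPKM in Cd248 KO and at 178, 170 and 169 FPKM in WT (difference -1.02). S100a9, an abundant protein of neutrophils, was at 14.2 FPKM in Cd248 KO and 39.8, 6.74 and 22.6 FPKM in WT. Ltf and Ngp did not have that order. Ltf, the granule protein lactoferrin, was at 1.0 FPKM in Cd248 KO and at 2.83, 2.40 and 2.93 FPKM in WT (difference -0.89, unadjusted p = 0.0020, adjusted p = 0.162). The authors' deposited table marks Ltf and Lcn2, alone of these markers, as significantly lower, beside 0.854% of the tested genes. Ngp, another granule protein, was at 1.13 FPKM in Cd248 KO and at or under 0.04 FPKM in WT. Of the other granule and lineage genes, Elane was at 0.11 FPKM in Cd248 KO and listed at 0 in all WT libraries. Ly6g was at 0.17 FPKM in Cd248 KO and at 0, 0 and 0.10 FPKM in WT. Mpo was at 0.03 FPKM in Cd248 KO and at 0, 0 and 0.06 FPKM in WT. Camp was at 0.53 FPKM in Cd248 KO and at 0, 0.22 and 0 FPKM in WT. Ngp, Elane, Ly6g and Camp thus lay above every WT library, at low values. None of 5 tested markers of this list was called. Their part in the chemokine values was not tested.

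Ppbp had the largest difference of the 10. Ppbp (90768518 to 90770063), the precursor of the neutrophil-activating peptide stored in platelet granules, was at 3.41 FPKM in the Cd248 KO library and at 26.5, 14.7 and 9.05 FPKM in WT replicates 1, 2 and 3. All WT values lay above the Cd248 KO value, and they differed among themselves by 2.93 times. The WT mean of 16.8 ± 8.93 FPKM (SD, n = 3) was 4.92 times the Cd248 KO level, and the difference was -1.89 (SE 0.58, 95% interval -3.45 to -0.33). Its unadjusted p was 0.0277 and its adjusted p 0.410. Leaving out WT replicate 1, 2 or 3 gave -1.51, -1.92 and -2.24. The authors' deposited table marks Ppbp as significantly lower, at a ratio of 0.20 and a log2 ratio of -2.30, by a test the sources used here do not name. It is the 1 member of the 10 so marked, beside 0.854% of the tested genes marked lower and 0.551% marked higher.

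Pf4 (90772435 to 90773383), platelet factor 4, which in mice is also made by macrophages, was at 11.5 FPKM in Cd248 KO and at 37.3, 12.3 and 17.9 FPKM in WT. The Cd248 KO value was lowest, but only just below that of WT replicate 2, and WT replicate 1 stood far above the rest. The difference was -0.76 (SE 0.61, 95% interval -2.42 to 0.90, adjusted p = 0.702), and -0.34 without WT replicate 1. Within a library, where scaling plays no part, Pf4 was 3.38 times Ppbp in Cd248 KO and 1.41, 0.84 and 1.98 times Ppbp in WT, so the pair did not keep 1 proportion.

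Other platelet transcripts were scarce in all 4 libraries. Of 10 platelet and megakaryocyte markers in the table, 8 were under 0.5 FPKM in every library, and the list summed to 4.01 FPKM in Cd248 KO and 4.35 to 5.66 FPKM in WT. Itga2b, the platelet integrin alpha chain, was at 0.85 FPKM in Cd248 KO and 0.72 to 0.80 FPKM in WT (difference 0.07, adjusted p = 0.876). Itgb3, an integrin chain that other cells share, was at 1.99 FPKM in Cd248 KO and 2.68 to 3.50 FPKM in WT (adjusted p = 0.457). Macrophage markers, the other known source of Pf4, had a median difference of -0.02 over 11 genes. Of these, Ly6c2, a marker of inflammatory monocytes, was called higher (7.44 FPKM in Cd248 KO and 2.35 to 2.56 FPKM in WT, adjusted p = 0.0275), and Csf1r, the receptor for the macrophage growth factor, was at 36.4 FPKM in Cd248 KO and 32.9 to 40.2 FPKM in WT. The part of these cells in the Pf4 and Ppbp values was not tested.

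The interferon-induced pair, Cxcl9 and Cxcl10, gave different values, and neither passed the test. Cxcl9 (92321347 to 92328079, minus strand) was at 7.87 FPKM in the Cd248 KO library and at 5.79, 4.38 and 4.64 FPKM in WT replicates 1, 2 and 3. The Cd248 KO value was above all WT values, 1.59 times their mean of 4.94 ± 0.75 FPKM (SD, n = 3). The difference was 0.59 (SE 0.16, 95% interval 0.15 to 1.03), with an unadjusted p of 0.0201 and an adjusted p of 0.372. It was 0.69, 0.52 and 0.55 without WT replicate 1, 2 or 3. Cxcl10 (92346638 to 92348889, minus strand), a ligand of the same receptor, was at 8.60 FPKM in Cd248 KO and at 8.45, 8.67 and 8.71 FPKM in WT. These 4 values lay within 0.26 FPKM of each other, and the 95% interval of the difference was -0.22 to 0.22 (adjusted p = 0.997). Its sign changed with the scaling and with the WT library left out. The ratio of Cxcl9 to Cxcl10 was 0.92 in Cd248 KO and 0.69, 0.51 and 0.53 in WT. Cxcl10 lies inside the span of Art3 on the opposite strand. Exons were not compared and no strand is stated, so whether reads of the pair could be mixed is not known. Art3 was under 1 FPKM in each library.

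Of 11 genes listed for the interferon gamma axis, 9 were tested and 0 were called, with a median difference of 0.03. Of these 9, 4 lay above and 3 below every WT library, against 28.0% and 31.2% of all tested genes. Gbp2, an interferon-induced GTPase, was at 36.5 FPKM in Cd248 KO and 28.7, 27.3 and 27.8 FPKM in WT (difference 0.37, unadjusted p = 0.0087, adjusted p = 0.291). Irf1, an interferon-induced transcription factor, was at 20.0 FPKM in Cd248 KO and 17.0 to 19.9 FPKM in WT (adjusted p = 0.710). Ifng itself stayed at or under 0.36 FPKM in each library. The receptor Cxcr3 was at 4.84 FPKM in Cd248 KO and at 4.63, 3.62 and 2.86 FPKM in WT (difference 0.33, adjusted p = 0.668). With the values as deposited, 9 of 10 tested T and NK cell markers lay above every WT library, and 0 of 10 were called. Of all tested genes 28.0% lay above, and 13.8% with the same FPKM total, where these markers were not recounted. The 12 markers summed to 49.5 FPKM in Cd248 KO and to 41.0, 30.9 and 28.2 FPKM in WT, and the part of these cells in the Cxcl9 value was not tested.

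The membrane-anchored ligands were among the 3 most abundant members in every library. Cxcl16 (chromosome 11, 70453983 to 70459984, minus strand), which also acts as a scavenger receptor for oxidised lipoprotein, was at 67.6 FPKM in the Cd248 KO library and at 64.6, 59.2 and 56.6 FPKM in WT. The Cd248 KO value was highest by a small margin, which was lost when libraries were scaled to the same FPKM total. The difference was 0.17 (SE 0.11, 95% interval -0.13 to 0.47, adjusted p = 0.655). Cxcl16 overlaps Zmynd15 on the opposite strand by 552 bases, and Zmynd15 was at 18.0 FPKM in Cd248 KO and 13.6 to 16.7 FPKM in WT. Cx3cl1 (chromosome 8, 94772009 to 94782427), or fractalkine, made by endothelium and tubule cells, was at 48.2 FPKM in Cd248 KO and at 62.6, 75.1 and 58.1 FPKM in WT. All WT values lay above that of Cd248 KO, with a difference of -0.42 (SE 0.17, 95% interval -0.88 to 0.04, adjusted p = 0.494). The ratio of Cxcl16 to Cx3cl1 was 1.40 in Cd248 KO and 1.03, 0.79 and 0.97 in WT.

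Endothelial markers ran beside Cx3cl1. All 8 tested lay below every WT library, where 31.2% of all tested genes did, with sums of 170 FPKM in Cd248 KO and 221 to 282 FPKM in WT, and 0 of 8 were called. Pecam1, an adhesion molecule of endothelium, was at 17.7 FPKM in Cd248 KO and at 24.5, 29.4 and 20.8 FPKM in WT (adjusted p = 0.529). WT replicate 2 held the highest value of both Pecam1 and Cx3cl1. The position was not particular to endothelium, as 9 of 10 fibroblast and myofibroblast markers also lay below every WT library. Of 11 tubule and podocyte markers 0 lay below and 2 above. Whether the endothelial or tubule share accounts for the Cx3cl1 value was not tested. The sheddases Adam10 and Adam17, which release both ligands from the membrane, were at 34.3 and 9.95 FPKM in Cd248 KO, against 37.9 to 43.6 and 10.2 to 12.4 FPKM in WT (adjusted p = 0.529 for Adam10 and 0.707 for Adam17).

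With the values as deposited, receptors of the anchored ligands were higher in the Cd248 KO library than in any WT library. Cxcr6, the Cxcl16 receptor of effector T and NKT cells, was at 10.01 FPKM in Cd248 KO and at 5.26, 4.26 and 3.50 FPKM in WT. The Cd248 KO value was 2.31 times the WT mean, and the difference was 1.06 (SE 0.21, unadjusted p = 0.0055, adjusted p = 0.260). The authors' deposited table marks Cxcr6 as significantly higher, with a q-value of 0.01. Cx3cr1, the Cx3cl1 receptor of monocytes and macrophages, was at 18.4 FPKM in Cd248 KO and at 17.8, 13.7 and 12.7 FPKM in WT (difference 0.31, adjusted p = 0.644). Its Cd248 KO value was only just above that of WT replicate 1, and the difference was 0.19 with the same FPKM total. Cxcr4, the receptor of Cxcl12, ran the other way, at 8.21 FPKM in Cd248 KO and at 18.6, 13.5 and 14.3 FPKM in WT (difference -0.83, unadjusted p = 0.0119, adjusted p = 0.315). Of 6 receptors tested, 0 were called. With the values as deposited, 3 lay above and 1 below every WT library, against 28.0% and 31.2% of all tested genes.

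**Figure D3:**
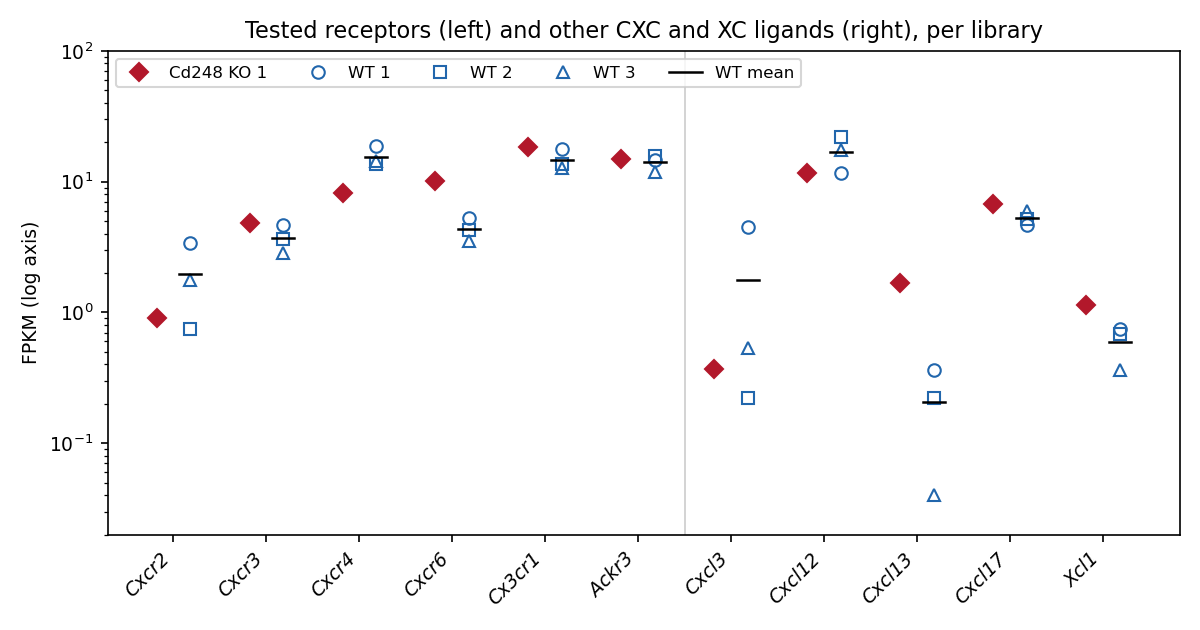
Level in FPKM (log axis) of the tested receptors (left of the grey line) and of the other tested CXC and XC ligands (right), in the Cd248 KO library (red diamonds) and WT replicates 1 to 3 (open blue symbols, black line at the WT mean). Cxcr6 is at 10.01 FPKM in Cd248 KO above all WT points, and Cxcr4 at 8.21 FPKM below them.

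Cxcl14 (chromosome 13, 56288643 to 56296551, minus strand), a homeostatic chemokine of epithelium and stroma whose receptor is not settled, was at 43.2 FPKM in the Cd248 KO library and at 74.1, 88.5 and 45.6 FPKM in WT. WT replicate 3 lay close to the Cd248 KO value, and WT replicates 1 and 2 well above both. The difference was -0.62 (SE 0.39, 95% interval -1.68 to 0.44, adjusted p = 0.637), and it was -0.55, -0.42 and -0.89 without WT replicate 1, 2 or 3. Of 10 fibroblast and myofibroblast markers, 9 lay below every WT library, where 31.2% of all tested genes did, and 2 were called lower, against 0.0830% of all tested genes. These were Acta2 (38.9 FPKM in Cd248 KO and 130 to 145 FPKM in WT, adjusted p = 0.0153) and Col1a1 (68.8 FPKM in Cd248 KO and 159 to 170 FPKM in WT, adjusted p = 0.0313). Urothelium markers summed to 25.0 FPKM in Cd248 KO and to 78.2, 84.5 and 27.7 FPKM in WT, the same order as Cxcl14. Of the 7 genes summed, only Krt5 and Upk3b had that order singly, and the other 5 were highest among the WT libraries in replicate 1. The part of either tissue in the Cxcl14 value was not tested.

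Among the ligands outside the 10, the stromal chemokine Cxcl12 was at 11.6 FPKM in Cd248 KO and at 11.6, 21.8 and 17.3 FPKM in WT (difference -0.46, adjusted p = 0.686). Cxcl13, the B cell attractant of lymphoid follicles, was at 1.69 FPKM in Cd248 KO and at 0.36, 0.22 and 0.04 FPKM in WT (difference 1.17, unadjusted p = 0.0036, adjusted p = 0.225). It passed the filter on low values only through the Cd248 KO library. Cxcl17, a mucosal chemokine, was at 6.69 FPKM in Cd248 KO and 4.67 to 5.99 FPKM in WT (adjusted p = 0.559). Cxcl11, the other Cxcr3 ligand, was at 0.30 FPKM in Cd248 KO and at or under 0.25 FPKM in WT, below the filter. Of 7 such ligands, 5 were tested and 0 called.

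Interleukin-1 and TNF, acting through NF-kB, induce the neutrophil-attracting ligands. Of 13 genes of the IL-1, TNF and NF-kB axis, 12 were tested, 0 were called and 6 lay below every WT library, where 31.2% of all tested genes did, with a median difference of -0.20. Il1b, the interleukin of activated myeloid cells, was at 6.51 FPKM in Cd248 KO and at 20.7, 13.1 and 9.64 FPKM in WT (difference -0.98, adjusted p = 0.506). Its order over the WT libraries was that of Ppbp and Cxcl2, but not that of Cxcl1, Cxcl5 or Cxcl3. The part of Il1b in the ligand values was not tested. Nfkbia, the inhibitor that NF-kB induces, was at 37.3 FPKM in Cd248 KO and 39.6 to 45.8 FPKM in WT (adjusted p = 0.599), and Tnf was at 2.83 FPKM in Cd248 KO and 2.41 to 3.67 FPKM in WT (adjusted p = 0.876).

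In order of level, the WT means fell into tiers. Cxcl14 (69.4 ± 21.8 FPKM), Cx3cl1 (65.3 ± 8.83) and Cxcl16 (60.1 ± 4.11) led (SD, n = 3 each), with overlapping ranges. Pf4 (22.5 ± 13.1 FPKM), Cxcl1 (17.3 ± 1.91), Ppbp (16.8 ± 8.93) and Cxcl5 (15.7 ± 5.97) followed, again overlapping each with the next. Cxcl10 (8.61 ± 0.14 FPKM), Cxcl2 (5.83 ± 2.85) and Cxcl9 (4.94 ± 0.75) were lowest. The ranges of neighbours in this order were separate only between Cxcl16 and Pf4 and between Cxcl5 and Cxcl10. In the Cd248 KO library Cxcl16 was first and Ppbp last. Cxcl9 was above Cxcl2 there and in WT replicate 3. Together the 10 genes summed to 222 FPKM in Cd248 KO and to 325, 296 and 238 FPKM in WT. Cxcl16 held 30.4% of that sum in Cd248 KO and 19.9%, 20.0% and 23.8% in WT, while Ppbp held 1.53% in Cd248 KO and 8.16%, 4.96% and 3.80% in WT.

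**Figure D4:**
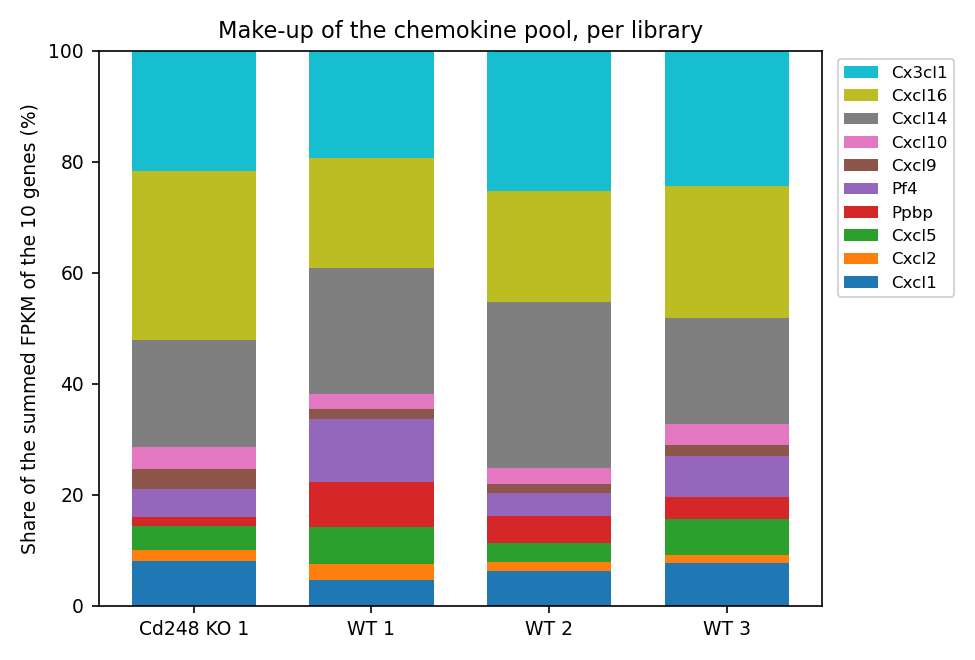
Share of each chemokine in the summed FPKM of the 10 genes (stacked bars, percent) in the Cd248 KO library and WT replicates 1 to 3. The Cxcl16 segment is 30.4% in Cd248 KO and 19.9% to 23.8% in WT, and the Ppbp segment 1.53% in Cd248 KO and 3.80% to 8.16% in WT.

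The spread among WT libraries set how much could be seen for each gene. The 5 members Pf4, Ppbp, Cxcl2, Cxcl5 and Cxcl14, had a WT standard deviation on the log2 scale above that of 96.1% or more of the tested genes, and Cxcl10 one above only 3.60%. Highest and lowest WT values differed by 3.03 times for Pf4 and by 1.03 times for Cxcl10. WT replicate 1 held the highest value of all 4 libraries for Cxcl2, Cxcl5, Ppbp and Pf4.

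The genes nearest to 3 members in profile, by Euclidean distance of mean-centred log2(FPKM + 1) values over the 4 libraries, were as follows. Ppbp lay nearest to Ptgs2, the inducible cyclooxygenase (distance 0.50), which was at 0.44 FPKM in Cd248 KO and at 4.58, 2.62 and 1.5 FPKM in WT, and to Prss22, a serine protease (0.52). Pf4 lay nearest to Gm49416 (0.20), at 0.20 FPKM in Cd248 KO and 2.19, 0.06 and 0.64 FPKM in WT. Il1f9, an interleukin of the IL-1 family (0.20), came next, at 0.60 FPKM in Cd248 KO and 3.11, 0.56 and 1.05 FPKM in WT. Both are low genes, whose changes the added 1 FPKM understates. Unlike Pf4, both were higher in Cd248 KO than in WT replicate 2. Cxcl14 lay nearest to Akr1b3, an aldose reductase (0.04), at 6.72 FPKM in Cd248 KO and 12.0, 14.6 and 7.38 FPKM in WT, and to Areg, the EGF receptor ligand amphiregulin (0.12). None of these 6 genes passed limma's test (adjusted p between 0.442 and 0.788).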

How the data were processed

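Kidney mRNA was sequenced from Cd248 KO and WT mice after ureteral obstruction. RNA was extracted with Trizol and selected on oligo(dT) beads, per the labels' protocols. The submitters' processing notes name cutadapt 1.9, FastQC, HISAT2 2.0.4 and mm10. The sources used here do not name the program that computed expression. The authors deposited FPKM per gene, rounded to 2 decimals, with their own ratio (fold change), its log2, a p-value and a q-value from an unnamed test, per the file headers. Depth is unknown: low FPKM values times transcript length showed no whole-read steps, so no counting interval is given.

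Groups came from the sample titles. The comparison planned as 3 libraries against 3 was made as 1 against 3. Nothing says the replicates are separate animals, so p-values reflect only how these libraries spread, possibly for technical reasons. Values were analysed as log2(FPKM + 1), which understates changes of low genes. Genes averaging 0.5 FPKM or more across the 4 libraries (16871, all 10 chemokines among them) were fitted with limma 3.58.1 (R 4.3.3) with a mean-variance trend, two-sided, Benjamini-Hochberg over all genes. The fit had 2 residual and 2.32 prior degrees of freedom. It was run on simulated data in which Cd248 KO varied like WT, so that assumption was not checked. Alternatives changed the pseudocount, filter, scaling, trend or WT libraries. Gene positions are from GENCODE M21, and 33572 of 33679 gene IDs matched. Promoters are RefSeq's. The members, gene lists and motifs were chosen with earlier results of these data known. Named genes were all members, their partners in the lists, called genes and the highest expressed markers. S100a9, Ltf, Ngp, Krt5, Upk3b, Elane, Ly6g, Mpo, Camp, Itga2b, Gbp2, Irf1, Nfkbia, Tnf, Pecam1 and other markers outside that rule were named after their values were seen.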

Additional observations from a re-analysis of the deposited data

How the results depend on the processing

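Under all 11 alternatives, 0 of the 10 chemokines passed limma's test in either direction, with 1 to 3 of them at an unadjusted p under 0.05. Ppbp, Pf4, Cxcl5, Cxcl14, Cx3cl1, Cxcl9 and Cxcl16 kept their sign throughout, Ppbp between -2.24 and -1.51 (adjusted p between 0.340 and 0.774) and Cxcl9 between 0.47 and 0.69 (0.30 to 0.767). The sign turned for Cxcl1 with the same FPKM total (-0.079), with the immunoglobulin genes left out (-0.0035) and without WT replicate 1 (-0.040 to 0.10 over the WT libraries left out). Leaving out WT replicate 1 turned it for Cxcl2 (-0.53 to 0.033 over the WT libraries left out) and Cxcl3 (-1.085 to 0.0040). For Cxcl10 it turned with median-ratio scaling (0.014) and without WT replicate 2 or 3 (-0.013 to 0.0061 over the WT libraries left out). Scaling to the same FPKM total moved the median of all genes to -0.11, and 6 members then lay below every WT library and 1 above (Cxcl5 and Cxcl10 were the additional lower ones, and Cxcl16 came to lie inside the range), where 49.6% and 13.8% of all tested genes did. The same members lay outside the range with the immunoglobulin genes left out, where 36.9% and 19.1% of genes did. Relative to that median Cxcl16 was still positive. Positions of the receptors and of the gene lists against the WT range were counted with the values as deposited only. Over all genes, 108 were called higher and 14 lower. These counts were 33 and 6 with a pseudocount of 0.1 FPKM, 201 and 4 with no filter, 11 and 7 with the immunoglobulin genes left out, and 41 to 62 and 1 to 4 without 1 WT library. With the same FPKM total 24 were lower. The cause was not tested. No paired analysis was possible because only replicate number 1 has a column in both groups. Unknown depth and a single Cd248 KO library limit what can be seen for the lower ligands.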

Other observations

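Of 6 tested proteases that shed or trim these ligands, 4 lay inside the WT range in the Cd248 KO library, with the values as deposited. The other 2, Adam10 and Adam17, lay below every WT library, where 31.2% of all tested genes did. Mmp9, a gelatinase of neutrophils, was at 2.60 FPKM in Cd248 KO and at 17.4, 1.28 and 8.82 FPKM in WT replicates 1, 2 and 3. Mmp8, the neutrophil collagenase, was at 0.39 FPKM in Cd248 KO and at 2.76, 0.28 and 1.5 FPKM in WT. Dpp4, which cuts the first residues from several chemokines, was at 15.2 FPKM in Cd248 KO and 13.6 to 15.7 FPKM in WT. Of 6 proteases tested, 0 were called (limma adjusted p between 0.529 and 0.914), and 0 had an unadjusted p under 0.05.

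The atypical receptor Ackr3, which binds Cxcl12 and carries it into the cell, was at 15.0 FPKM in Cd248 KO and 11.8 to 15.8 FPKM in WT (difference 0.09, adjusted p = 0.876). Ackr1, the Duffy antigen receptor of venules, stayed at or under 0.21 FPKM in each library.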
